A study of Homo sapiens with 8 samples.

Results

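A list of 10 transcription factor genes of the myeloid lineage was followed at the level of gene counts and of single isoforms after PTBP1 knockdown (KD). The members are SPI1, CEBPA, CEBPB, CEBPE, IRF8, GFI1, RUNX1, IKZF1, MYC and KLF4, taken by name. No measured value entered the rule, but earlier results of these data were known when the list was chosen. A gene's count was the sum over its transcripts in GENCODE version 44 (GRCh38). All 10 genes had at least 1 count, among 16474 genes with a count, and 41 of their 96 annotated transcripts were counted. MOLM-13, a human acute myeloid leukemia (AML) line, was sampled in 2 groups of 4 biological replicates. Cells of the shPTBP1 group held an shRNA that targets PTBP1, and those of the shSCR group a scrambled sequence as control. In both, a lentivirus delivered the shRNA together with a ΔLNGFR reporter that dox (doxycycline) switches on and an mCherry reporter that is always on, and 9 days of dox preceded RNA collection. The comparison rests on 1 cell line and 1 shRNA a group, so that the effect of PTBP1 loss and other differences between the transduced lines cannot be told apart. Where replicates did not come from separate transductions, the p-values measure the spread between cultures only. RNA was read as full-length cDNA on a nanopore instrument.

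Myeloid cells are made under the direction of a small set of DNA-binding proteins that act together at enhancers and promoters. RUNX1 with its partner CBFB, PU.1 (the product of SPI1) and the C/EBP proteins open and activate myeloid genes, while GFI1 and IRF8 weigh the granulocytic against the monocytic fate. MYC drives growth and ribosome production in progenitors, and is commonly high in AML. PTBP1 is an RNA-binding protein that represses and activates exons, and the study asked how its loss alters expression and splicing in leukemia cells, where RUNX1 was its proposed partner.

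Sequences are shown for RUNX1, which had an isoform counted in 1 library alone, and for GFI1, whose counted transcripts have separate annotated starts. RUNX1-202 and RUNX1-203 start at the same proximal first exon on chromosome 21 (minus strand) and share their first 4 exons, the last of which is chr21:34834410-34834601. RUNX1-203 then joins its final exon, exon 5, at chr21:34821279-34821696, which adds 26 coding bases and ends a protein of 250 codons. RUNX1-202 joins instead an exon at chr21:34799301-34799462 and codes for 453 codons, with the C-terminal transactivation region that the short protein (RUNX1a) lacks. In both sequences, read from GRCh38, the last 24 bases of the shared exon are in lower case and the first 26 bases of the next exon are in capitals.
RUNX1-203: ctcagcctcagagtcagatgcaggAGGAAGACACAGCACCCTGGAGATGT
RUNX1-202: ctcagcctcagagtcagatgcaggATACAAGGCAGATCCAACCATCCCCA

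Both GFI1 transcripts with counts are annotated as coding, but they start 828 bases apart on chromosome 1 (minus strand), GFI1-201 at 92486925 and GFI1-203 at 92486097. The 250 bases before each annotated RefSeq start are given below (GRCh38.p14, at chr1:92486926-92487175 for GFI1-201 and chr1:92486100-92486349 for GFI1-203). Whether each start is used as a separate promoter in these cells was not tested. Neither window overlaps a GFI1 exon. Capitals mark matches on either strand to the RUNX core TGTGGT or to CCAAT, of which the upstream window held none and the other window held 1 each. Over 35116 promoter windows of the same length, 11.0% held TGTGGT and 32.0% held CCAAT, so these matches are common and are a description only.
GFI1-201: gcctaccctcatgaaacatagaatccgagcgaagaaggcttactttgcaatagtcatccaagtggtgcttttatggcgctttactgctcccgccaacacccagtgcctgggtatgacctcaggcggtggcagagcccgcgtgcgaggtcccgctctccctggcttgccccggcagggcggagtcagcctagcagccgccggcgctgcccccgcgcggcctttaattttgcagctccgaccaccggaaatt
GFI1-203: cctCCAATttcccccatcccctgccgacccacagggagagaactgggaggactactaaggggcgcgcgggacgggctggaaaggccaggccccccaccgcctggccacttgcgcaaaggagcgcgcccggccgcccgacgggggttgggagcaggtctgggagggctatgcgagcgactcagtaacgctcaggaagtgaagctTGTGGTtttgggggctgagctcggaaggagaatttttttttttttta

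Library totals lay between 1528449 and 1613342 counts. PTBP1 was at 9.88 ± 3.55 CPM (normalized counts per 1000000 counts, SD, n = 4) in shPTBP1 and 47.5 ± 7.81 in shSCR (log2 fold change −2.26, edgeR adjusted p = 7.18e-05). Its paralog PTBP2, which PTBP1 represses, was at 124 and 1.45 CPM. Of 11 myeloid markers, 8 had enough counts for testing, with a summed level of 1151 to 1334 CPM in shPTBP1 and 1035 to 1227 in shSCR. CSF2RA, a defining marker, was at 0 throughout in both of its annotated copies, which lie in the region that X and Y share. The authors kept only reads of high mapping quality, and whether reads from such paired copies passed was not tested. SPI1 had 1 count in all. Markers of B cells reached at most 7 counts in a library and those of erythroid and megakaryocytic cells at most 4. Of the T and NK cell markers, 6 of 8 were at 0 in every library, and NKG7 had 81 counts in shPTBP1 and 108 in shSCR.

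The members fell into a set of well-counted genes and a set near the limit of detection. CEBPA, IRF8, GFI1 and MYC passed the filter on low counts, and none of these 4 differed between shPTBP1 and shSCR. Among all 7597 genes tested, 5.54% were called at an adjusted p under 0.05, 3.19% lower and 2.36% higher after KD. The 4 genes had log2 fold changes from −0.03 to 0.14, with a median of 0.05, beside a median of -0.00 over all genes tested. SPI1, CEBPB, CEBPE, RUNX1, IKZF1 and KLF4 were below the filter and are described by their counts. In these bulk libraries, fewer cells with an RNA and less of it in each cell cannot be told apart. The shPTBP1 and shSCR values overlapped for all 10 members. Among all 7597 genes tested, 12.7% had groups that did not overlap, so overlap in the 4 tested members was the usual outcome. The other members were below the filter, where this share does not apply.

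**Figure D1:**
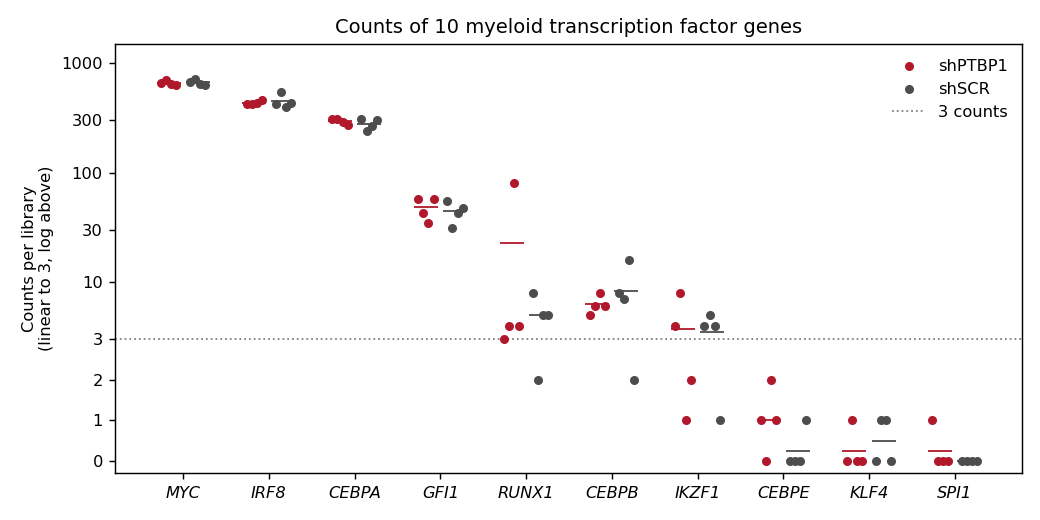
Counts of each member gene in each library (y axis, linear to 3 counts and logarithmic above), shPTBP1 in red and shSCR in grey, with a line at the mean of each group and a dotted line at 3 counts. MYC, IRF8, CEBPA and GFI1 were well counted and overlapped between groups, and RUNX1 had 80 counts in 1 shPTBP1 library against 2 to 8 in the 7 others.

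CEBPA (chr19:33299934-33302534, minus strand) is a single-exon gene for C/EBPα, which commits progenitors to the granulocytic and monocytic lineages. The 4 shPTBP1 libraries held 194.9, 203.5, 192.9 and 172.9 CPM, and the shSCR libraries 188.6, 151.5, 177.4 and 196.3. The lowest value was in shSCR replicate 2 and the highest in shPTBP1 replicate 2, with the remaining values interleaved. The means of 191 ± 13.0 and 178 ± 19.6 CPM (SD, n = 4 each) gave 0.10 on the log2 fold change scale (SE 0.09, adjusted p = 0.606 by edgeR's quasi-likelihood test). The 95% interval ran from 0.938- to 1.22-fold. CEBPA has 1 annotated transcript, so no isoform comparison exists for it.

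The other C/EBP members, CEBPB and CEBPE, were scarce. CEBPB (chr20:50190830-50192668), the C/EBP protein of emergency granulopoiesis and macrophage activation, had 5, 6, 8 and 6 counts in shPTBP1 and 8, 7, 16 and 2 in shSCR. Both the lowest and the highest count were in shSCR libraries. The ratio of the summed counts, 25 against 33 and scaled for library size, was 0.747 with an exact 95% counting interval of 0.426 to 1.30. CEBPB-AS1, a non-coding gene on the opposite strand, overlaps CEBPB and had 14 counts in all. Whether the counting used strand is not given in the sources used here, so reads of this pair may be shared.

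CEBPE (chr14:23117036-23120256, minus strand), which acts late in granulocyte maturation, had 0 to 2 counts a library, 4 in all in shPTBP1 and 1 in shSCR. The ratio of 3.95 has a counting interval of 0.391 to 194, so that a difference was not detectable at this depth. SPI1 (chr11:47354860-47378547, minus strand) encodes PU.1, the ETS factor without which myeloid cells do not form. It had 1 count, in shPTBP1 replicate 1, and 0 in each of the 7 other libraries. A count of 0 allows up to 1.84 to 2.00 CPM in a library (3 counts), and 0.480 CPM over the shSCR group, for counting error only. The shPTBP1 group had 1 count of SPI1, so the limit for a count of 0 does not apply to it.

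IRF8 (chr16:85899116-85922606) favours monocyte and dendritic cell development and restrains granulocytes. Its level was 270.8, 278.8, 285.7 and 292.6 CPM in shPTBP1 and 261.2, 348.9, 265.4 and 277.2 in shSCR. The shPTBP1 values formed a narrow band inside the shSCR range, which shSCR replicate 2 widened. With means of 282 ± 9.34 and 288 ± 41.1 CPM (SD, n = 4 each), the log2 fold change was −0.03 (SE 0.09, adjusted p = 0.896 by edgeR) and its 95% interval ran from 0.857- to 1.12-fold. IRF8-201, the reference coding transcript, held 98.8 ± 1.40% of the gene's counts in shPTBP1 and 98.7 ± 0.73% in shSCR. Coding transcripts together held 99.3 ± 0.996% and 99.0 ± 0.736% (two-sided exact permutation p = 0.571, the smallest possible with 4 against 4 being 0.0286). The retained-intron transcript IRF8-214 had 1, 0, 2 and 8 counts in shPTBP1 and 6, 7, 3 and 0 in shSCR, overlapping ranges at the low end of the counts.

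GFI1 (chr1:92473043-92486925, minus strand) encodes a zinc finger repressor that recruits KDM1A and histone deacetylases and sustains granulocytic differentiation. It was counted at 36.1, 28.4, 23.0 and 37.1 CPM in shPTBP1 and 33.8, 19.7, 28.7 and 30.8 in shSCR. No ordering of the groups was visible. The means were 31.2 ± 6.66 and 28.3 ± 6.05 CPM (SD, n = 4 each), and the log2 fold change was 0.14 (SE 0.20, adjusted p = 0.760 by edgeR). At 31 to 58 counts a library the 95% interval was wide, from 0.822- to 1.48-fold.

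GFI1-201, annotated from the upstream start, was the main GFI1 transcript in every library. It held 86.0, 76.7, 85.7 and 89.7% of GFI1 counts in shPTBP1 and 80.0, 77.4, 76.7 and 77.1% in shSCR. In shPTBP1, 3 libraries were above every shSCR library and the remaining one, replicate 2, lay level with the lowest of them. The mean shares were 84.5 ± 5.49% and 77.8 ± 1.48% (SD, n = 4 each). GFI1-203, annotated from the downstream start, had 8, 10, 5 and 6 counts against 11, 7, 10 and 11. This was below the filter for isoforms, and the difference was not tested in the main fit. In the fit over all transcripts with a count, no member isoform was called. A call there needed a share change of at least 10 points, which the GFI1 means did not reach.

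RUNX1 (chr21:34787801-36004667, minus strand), the proposed partner of PTBP1 and a frequent target of leukemia mutations, was barely counted except in 1 library. Its counts were 3, 4, 80 and 4 in shPTBP1 and 8, 2, 5 and 5 in shSCR. Of the 80 counts in shPTBP1 replicate 3, 74 were assigned to RUNX1-203, the short isoform shown above, which had 0 counts in the 7 other libraries. The group sums of 91 and 20 gave a ratio of 4.49 with a counting interval of 2.74 to 7.69, an interval that holds no replicate error. When edgeR was run without a filter on low counts, RUNX1 was the only member called, with a log2 fold change of 2.20 (SE 0.64, adjusted p = 0.0494). Without shPTBP1 replicate 3 the same fit gave −0.42 (edgeR adjusted p = 0.814), a change of direction. DESeq2, which sets aside genes with an outlying library, gave a log2 fold change of 2.24 for RUNX1 and no p-value.

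The remaining RUNX1 counts were spread over coding transcripts of both promoters. RUNX1-202 had 2, 1, 5 and 2 counts in shPTBP1 and 5, 2, 1 and 5 in shSCR, and RUNX1-201, of the distal promoter, had 1, 3, 1 and 0 against 3, 0, 3 and 0. Transcripts with the distal first exon (RUNX1c) held 7 of 91 RUNX1 counts in shPTBP1 and 6 of 20 in shSCR. The mean share over libraries was 39.9 ± 30.9% and 24.4 ± 29.6% (SD, n = 4 each, two-sided exact permutation p = 0.514), whereas the pooled counts put shPTBP1 22.3 points lower (difference of −22.3 points). Most of the pooled shPTBP1 counts were the 74 of RUNX1-203, and no preference for a promoter could be read at this depth.

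Counts that are high in some libraries and 0 in others were not particular to RUNX1-203. Over all transcripts with at least 20 counts in a library, 411 of 8891 (4.62%) were at 0 in another, and 15 transcripts had at least 50 counts in 1 library and 0 in the 7 others. At the level of genes this held for 171 of 6972 (2.45%). RUNX1 was the only member with such a transcript. Among related factors, ETV6-202, of an ETS repressor, had 54, 0, 51 and 0 counts in shPTBP1 and 56, 51, 0 and 59 in shSCR, so that it was absent from libraries of both groups. A low count for SPI1, RUNX1 or IKZF1 is therefore a low count in this table. For RUNX1, the paper reported the protein beside PTBP1 in nuclei of MOLM-13 cells and at promoters, so its low count does not mean silence. Whether SPI1 or IKZF1 is silent in the cells was not tested.

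**Figure D2:**
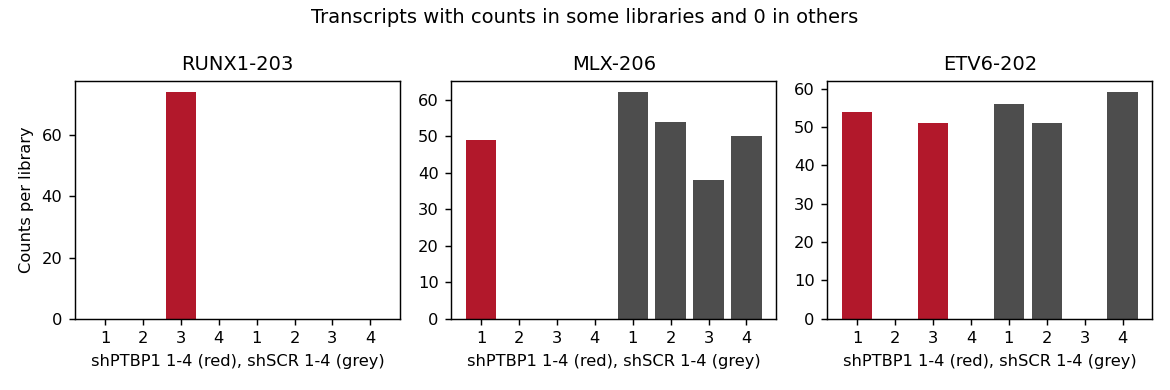
Counts per library (y axis) of RUNX1-203, MLX-206 and ETV6-202 in shPTBP1 replicates 1 to 4 (red) and shSCR replicates 1 to 4 (grey). RUNX1-203 was counted 74 times in 1 library alone, MLX-206 in 5 libraries and ETV6-202 in 5 libraries, with 0 in the others.

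IKZF1 (chr7:50304068-50405101) encodes Ikaros, a zinc finger factor of lymphoid and early myeloid cells that works with the NuRD complex. It had 4, 8, 1 and 2 counts in shPTBP1 and 4, 5, 4 and 1 in shSCR. The ratio of the sums, 15 against 14, was 1.06 (counting interval 0.476 to 2.36). IKZF1-201 held 6 of the 15 counts in shPTBP1, and IKZF1-212, a shorter coding transcript, held another 6 as 1, 3, 0 and 2, with 0 in every shSCR library. These counts are too few for a test of usage. KLF4 (chr9:107484852-107490482, minus strand), a monocyte-promoting factor, had 1 count in shPTBP1 and 2 in shSCR, at or under the limit for a fold.

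MYC, on chromosome 8, was the highest of the members. The shPTBP1 libraries held 419.5, 466.4, 425.3 and 407.2 CPM, and the shSCR libraries 412.9, 458.4, 432.1 and 406.1. The values of the groups were interleaved over the whole range. The means were 430 ± 25.7 and 427 ± 23.4 CPM (SD, n = 4 each), with a log2 fold change of 0.01 (SE 0.07, adjusted p = 0.972 by edgeR) and a 95% interval from 0.911- to 1.11-fold, the narrowest among the 4 tested members. MYC-202 carried 95.5 ± 0.90% of MYC counts in shPTBP1 and 94.3 ± 0.55% in shSCR. The difference of 1.18 points was not called (diffSpliceDGE of edgeR, adjusted p = 1.00), and its ranges overlapped. MYC-213, the next isoform, held 2.54% and 3.16%, and coding transcripts together held 99.9% and 100% (two-sided exact permutation p = 1.00). These 2 MYC isoforms were the only member isoforms tested in the main fit, and neither was called. Over all genes, 1.12% of 5464 isoforms tested were called. For the other members the main fit holds no isoform test.

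**Figure D3:**
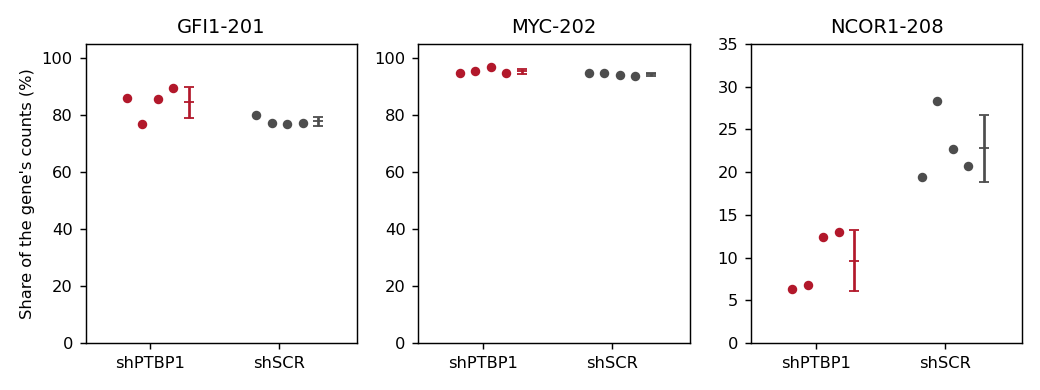
Share of the gene's counts (y axis, percent) on GFI1-201, MYC-202 and NCOR1-208 in each library, with mean and SD beside the points, shPTBP1 in red and shSCR in grey. GFI1-201 and MYC-202 overlapped between groups, and NCOR1-208 was lower in all 4 shPTBP1 libraries.

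Per kilobase of the main transcript, MYC was at 183 CPM in shPTBP1 and 182 in shSCR, followed by IRF8 at 106 and 108, CEBPA at 73.4 and 68.6, and GFI1 at 6.84 and 6.20. The order was the same in both groups. A transcript length is a rough correction for full-length cDNA counts, and levels of the 6 scarce members were not ranked.

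The wider network of these factors held 240 genes in lists written by function, of which 144 were tested. Of these, 7 were lower and 8 higher after KD, 15 in all or 10.4%, beside 5.54% of all genes tested. The lists were written with earlier results of these data known. For the lists of factors and cofactors alone the count was 6 of 86 (4 lower, 2 higher, 6.98%). The 10 ETS factors, 5 C/EBP partners, 8 IRF family genes, 8 GFI1 co-repressors, 8 Ikaros and NuRD genes and 1 KLF gene that were tested held no called gene, with medians of the log2 fold change of 0.06, 0.12, −0.13, −0.01, 0.04 and 0.07.

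The list of AP-1 and early growth response factors, which follow growth factor and differentiation signals and include partners of PU.1 and the C/EBP proteins, had 2 of 9 genes called, both higher, and a median of −0.13. EGR1, a zinc finger factor linked to monocytic differentiation, was at 356.8, 413.6, 381.8 and 400.2 CPM in shPTBP1 and 137.0, 98.1, 108.7 and 149.5 in shSCR. Each shPTBP1 value was above every shSCR value (log2 fold change 1.65, SE 0.11, edgeR adjusted p = 3.71e-06). FOS, an AP-1 subunit, was at 527.7, 518.0, 557.6 and 533.3 CPM against 382.2, 262.3, 301.4 and 333.6, again without overlap (0.74, SE 0.09, adjusted p = 0.000537 by edgeR).

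Among 17 other hematopoietic factors tested, ID3 and STAT6 were lower. ID3, which binds E proteins and keeps them from DNA, was at 56.9, 70.7, 66.5 and 78.1 CPM in shPTBP1 and 114.9, 110.8, 121.4 and 115.5 in shSCR (log2 fold change −0.76, SE 0.10, edgeR adjusted p = 0.000597). Every shPTBP1 value was below every shSCR value. STAT6, the mediator of interleukin-4 signals, changed by −0.36 (edgeR adjusted p = 0.0430), and the call was lost when any 1 of the 8 libraries was left out (adjusted p up to 0.132). It was also not called by DESeq2 (adjusted p = 0.209).

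The RUNX1 partners were represented by 7 tested genes with a median log2 fold change of −0.15. CBFB, the obligate partner of RUNX1, was at 23.7 CPM in shPTBP1 and 24.8 in shSCR (log2 fold change −0.07, edgeR adjusted p = 0.897). CREBBP had the largest change of this list at −1.10, and its groups did not overlap, but it was not called (edgeR adjusted p = 0.0870). It had 3 to 13 counts in shPTBP1 libraries and 16 to 22 in shSCR. NCOR1, a corepressor scaffold that carries histone deacetylases, was the only one called. Its level was 79.7, 58.1, 79.7 and 64.0 CPM in shPTBP1 and 98.3, 105.7, 88.0 and 102.0 in shSCR, lower in all 4 shPTBP1 libraries (−0.48, edgeR adjusted p = 0.0262). Blocking on the replicate number raised the adjusted p to 0.0614 (edgeR), and the call was also lost when any 1 of 5 libraries was left out (adjusted p up to 0.0867). The gene has pseudogene copies, between which the counting could have split reads.

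The makeup of NCOR1 transcripts differed too, and this is not separate from the lower gene sum. NCOR1-208, a coding transcript from the 5′ part of the gene (chr17:16126132-16215530), held 6.35, 6.82, 12.4 and 13.0% of NCOR1 counts in shPTBP1 and 19.4, 28.3, 22.7 and 20.8% in shSCR. Its share fell from 22.8 ± 3.93% to 9.64 ± 3.54% (SD, n = 4 each), a difference of −13.2 points (diffSpliceDGE of edgeR, adjusted p = 0.0171). It had 42 counts in the shPTBP1 libraries together and 141 in the shSCR libraries. The call was lost without shPTBP1 replicate 1, 2 or 4 or shSCR replicate 2 (adjusted p up to 0.105), with differences of −14.3 to −11.3 points over the 8 libraries left out in turn.

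**Figure D4:**
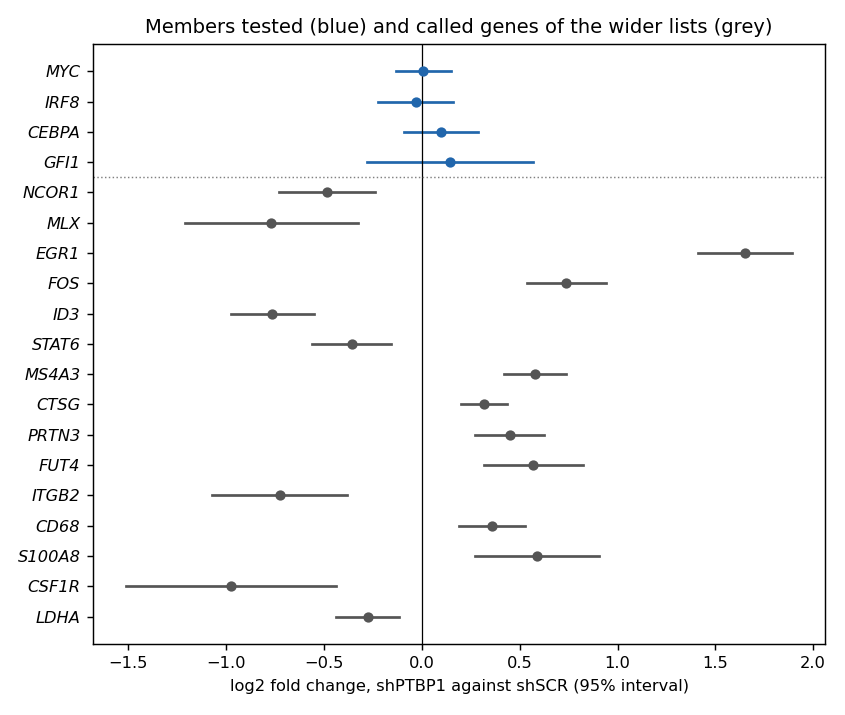
Log2 fold changes of shPTBP1 against shSCR (x axis) with 95% intervals for the 4 tested members (blue) and the 15 called genes of the wider lists (grey). The intervals of MYC, IRF8, CEBPA and GFI1 include 0, and EGR1 lies farthest from 0 at 1.65.

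In the MAX network, the dimerization partners and turnover factors of MYC, 1 of 13 tested genes was called and the median was −0.03. MAX itself was at 72.4 CPM in shPTBP1 and 73.3 in shSCR (log2 fold change −0.02, edgeR adjusted p = 0.955). MLX, the partner of MondoA and ChREBP, was called lower at −0.77 (edgeR adjusted p = 0.0448), although its groups overlapped. Its retained-intron transcript MLX-206 had 49, 0, 0 and 0 counts in shPTBP1 and 62, 54, 38 and 50 in shSCR. Leaving out single libraries ended the call in 7 of 8 cases, with edgeR adjusted p up to 0.134. With coding transcripts only, MLX was at 0.29 (edgeR adjusted p = 0.527), the opposite direction.

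Of 33 textbook MYC targets tested, 1 was called (3.03%, beside 5.54% of all genes), and the median of the list was 0.04. It was LDHA, the lactate dehydrogenase subunit, at −0.28 (edgeR adjusted p = 0.0490), a call lost in 7 of the 8 fits without 1 library (adjusted p up to 0.148). NCL, for nucleolin, was at 545 CPM in both groups.

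The list of myeloid genes under SPI1 and C/EBP control had 8 of 25 tested genes called, 6 higher and 2 lower (32.0%, beside 5.54% of all genes tested). This was the largest share among the wider lists, and the median log2 fold change was 0.11. The list was written with earlier results of these data known. It also holds highly counted genes (up to 6345 counts in a library), and no comparison with genes of like counts was made. MS4A3, a membrane protein of granulocyte-monocyte progenitors, was at 397 ± 24.4 CPM in shPTBP1 and 266 ± 21.1 in shSCR (log2 fold change 0.58, edgeR adjusted p = 0.000564). The azurophil granule proteases CTSG and PRTN3 rose by 0.32 and 0.45 (edgeR adjusted p = 0.00486 and 0.00753). FUT4, the fucosyltransferase that makes CD15, rose by 0.57 (adjusted p = 0.0145 by edgeR). These 4 calls held when any 1 library was left out.

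Not every gene of this list moved alike. ELANE, another granule protease, was at 0.11 and AZU1 at 0.01 on the log2 scale, and neither was called (edgeR adjusted p = 0.286 and 0.946). ITGB2, the shared β chain of leukocyte integrins, fell by 0.73 on the log2 scale (edgeR adjusted p = 0.0193), with 79.4 to 135.4 CPM in shPTBP1 and 138.3 to 201.2 in shSCR. The remaining called genes, chosen for mention after their values were seen, were CD68 at 0.36, S100A8 at 0.59 and CSF1R at −0.97 (edgeR adjusted p = 0.0194, 0.0344 and 0.0375). CSF1R, the receptor for macrophage colony-stimulating factor, had 9 to 15 counts in shPTBP1 libraries and 20 to 28 in shSCR, and blocking on the replicate number raised its adjusted p to 0.0723 (edgeR). When single libraries were left out, the calls of ITGB2, CD68, S100A8 and CSF1R were lost in 5, 3, 5 and 7 of 8 cases (edgeR adjusted p up to 0.0758, 0.0672, 0.102 and 0.116).

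**Figure D5:**
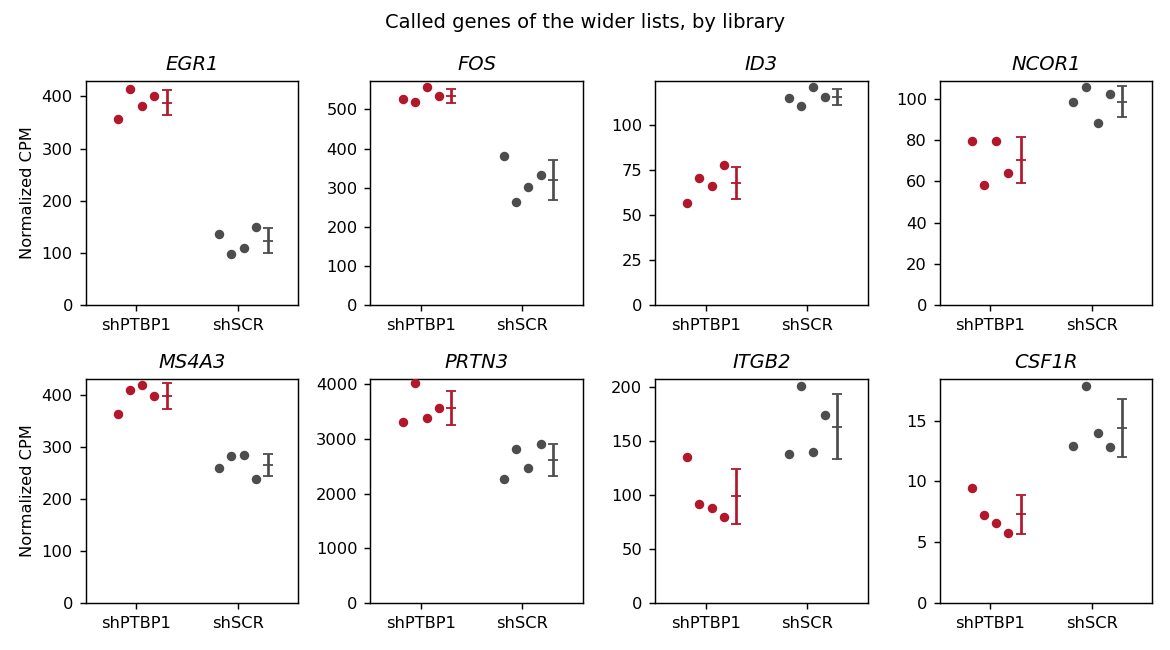
Normalized CPM (y axis, from 0) by library for 8 called genes of the wider lists, with mean and SD beside the points, shPTBP1 in red and shSCR in grey. EGR1, FOS, MS4A3 and PRTN3 were higher and ID3, NCOR1, ITGB2 and CSF1R lower in all 4 shPTBP1 libraries.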

How the data were processed

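Total RNA was made into nanopore cDNA libraries. Per the paper's methods, the authors mapped reads to the hg38 build (minimap2), kept those of high mapping quality and counted transcripts (StringTie). Tool versions, the annotation, strand use and how StringTie output became whole numbers are not given in the sources used here. The deposited transcript counts are whole numbers without normalization. A second table deposited by the authors holds CPM, the count per 1000000 counts of a library without length correction (largest difference from the counts 4.998e-07, tolerance 1e-06), and served only an alternative. Groups and replicate numbers came from the labels.

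Transcripts were joined by Ensembl identifier to GENCODE version 44. Of 254070 transcripts, 1508 (0.0876 to 0.115% of counts) had no match and were left out. Gene sums were TMM-normalized and compared in edgeR 4.0.16 (R 4.3.3) by its quasi-likelihood test, with the group as the only term, after filterByExpr (minimum count 10), at a Benjamini-Hochberg adjusted p under 0.05 over all genes tested. CPM values in the report use the TMM library sizes. Isoform usage was tested with diffSpliceDGE at the same threshold and a share change of at least 10 points. Single shares were compared by exact permutation tests over libraries. The fits were tested on simulated counts with the same variability (dispersion) for every gene. In the gene fit, 43.5, 89.8 and 100% of genes changed by 0.5, 1 and 1.5 on the log2 scale were called. Among the 7403 genes run, 9 unchanged genes were called. The recovery of isoform changes is not given here. The simulation held no transcripts missing from whole libraries, so it does not cover that pattern. Count intervals and limits (3 counts) cover counting error only, since PCR copies are not separate molecules.

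The members and the gene lists were chosen with earlier results of these data known. Named were all members, at most 5 called genes of each wider list by smallest adjusted p, called isoforms, and PTBP1 and PTBP2. Member isoforms with at least 10% of counts were named too, except those of SPI1, CEBPA, CEBPB, CEBPE and KLF4. Other genes and isoforms, among them IRF8-214, MYC-213, MLX-206 and ETV6-202, were named after their values were seen. A further 2 genes of the wider lists are not reported here and were left out of the list counts. Alternatives were DESeq2 1.42.0, limma-voom and limma-trend (limma 3.58.1, log2 of CPM plus 1), DESeq2 size factors, other filters, thinning, coding transcripts only, a replicate block and leaving out each library. Replicate numbers were not treated as pairs, since deviations of same-numbered libraries correlated at −0.0328 to 0.00889. Sequences were read from GRCh38 and from RefSeq promoters (GRCh38.p14), with Python 3.11.15.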

Additional observations from a re-analysis of the deposited data

Results flagged for a closer look

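In 54 groups of 4 libraries, 4 had a highest or lowest library set apart from the other values of its group by more than Dixon's 95% limit (0.829), where chance sets apart about 1 in 20 groups. RUNX1 stood at 52.7 CPM in shPTBP1 replicate 3, with 1.90 to 2.64 in the other shPTBP1 libraries, and RUNX1-203 held 74 of its 80 counts. MLX stood at 46.8 CPM in shPTBP1 replicate 1, with 22.4 to 26.3 in the others, and this was the one shPTBP1 library with counts of MLX-206, 49 of them. The share of MYC counts on coding transcripts was 99.7% in shPTBP1 replicate 2 and 99.8% in shSCR replicate 3, with 100% in the other libraries, differences of 2 and 1 counts.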

How the results depend on the processing

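No member gene was called under any setting but 1. With the filter on low counts in place, the number was also 0 whichever library was left out. Without that filter the number was 1 (RUNX1). RUNX1 turned to −0.42 when shPTBP1 replicate 3 was left out of that fit, a setting chosen after its counts were seen. Without another library it was 1.94 to 2.57, and the call was lost without shSCR replicate 2 (adjusted p = 0.0934) or 3 (0.0533). CEBPA and GFI1 kept their sign when single libraries were left out (0.03 to 0.15 and 0.00 to 0.26), and IRF8 (−0.08 to 0.07) and MYC (−0.03 to 0.04) did not, and MYC was as low as −0.03 under another setting too. The RUNX1 distal share differed by 15.5 points over libraries, 3.82 to 28.4 with single libraries left out, and by −22.3 points from pooled counts. No member isoform was called under any setting run. These settings tested 2 to 4 member isoforms, or 38 over all transcripts with a count.

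Of the wider lists, 15 genes were called, 12 to 19 under the other settings and 8 to 15 with single libraries left out. The number was 8 without shPTBP1 replicate 2, shPTBP1 replicate 4 or shSCR replicate 4, and 9 without shPTBP1 replicate 3. EGR1, FOS, ID3, MS4A3, CTSG, PRTN3 and FUT4 held throughout. The NCOR1-208 call was lost over all transcripts with a count (adjusted p = 0.276). MLX turned to 0.29 with coding transcripts only. DESeq2 did not call STAT6, S100A8 or MLX (adjusted p = 0.209, 0.0869 and 0.0504) and gave no adjusted p for CSF1R. Without a filter on low counts, edgeR lost STAT6 and CSF1R (adjusted p = 0.105 and 0.0639). With thinning it lost MLX (0.0526). LDHA was lost with limma-voom, with DESeq2 size factors and with coding transcripts only (adjusted p = 0.0555, 0.0509 and 0.0506). In a fit with the replicate number as a block, 0 members and 12 genes of the wider lists were called, and the calls lost were NCOR1, CSF1R and STAT6 (adjusted p = 0.0614, 0.0723 and 0.0801). The cause of these changes was not tested. The 6 members below the filter are given as counts only.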
